A study of Mus musculus with 8 samples.

Results

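The receptors for the colony-stimulating factors and the ligand Csf1 were followed in sorted myeloid cells of tumor-bearing mice. The 6 genes were Csf1r, Csf2ra, Csf2rb, Csf2rb2, Csf3r and Csf1, taken by name from the 32285 genes of the matrices. Each gene was described by its unique molecular identifiers (UMIs, 1 per captured transcript) in each library, genotype label and cell cluster, and cells without immune markers were examined as a possible source of ligand.

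Colony-stimulating factors are cytokines that control the production, survival and maturation of myeloid cells. CSF1 (M-CSF) binds CSF1R, a receptor tyrosine kinase of monocytes and macrophages, and IL-34 is its other ligand. CSF2 (GM-CSF) binds the alpha chain CSF2RA, which signals with the common beta chain CSF2RB, also shared by the IL-3 and IL-5 receptors, and mice carry a second beta chain, Csf2rb2, used with the IL-3 receptor alpha chain. CSF3 (G-CSF) binds CSF3R, the receptor that drives neutrophil production. In tumors these cytokines are known as regulators of macrophages and of myeloid-derived suppressor cells.

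Cells with the surface phenotype CD45+CD11b+Ly6Chi, that of monocytic myeloid-derived suppressor cells, had been sorted from MC38 tumors (a mouse colon carcinoma line grown under the skin) or from the blood of tumor-bearing mice. The tumors were unirradiated (Control) or had received 1 dose of 20 Gy ionizing radiation (IR) 3 days earlier, which gave the 4 libraries tumor control, tumor IR, blood control and blood IR. In every library, cells of WT mice (Ythdf2 fl/fl without Cre, hashtag B0301) were mixed with cells of Ythdf2 cKO mice (Lyz-Cre+;Ythdf2 fl/fl, hashtag B0302), all on a C57BL/6J background, so the floxed alleles were common to both labels and Cre was driven by the Lyz promoter of myeloid cells. Each of the 8 groups was 1 pool of mice in 1 library, with no replicate, so no p-value or error between mice could be given, and every 95% interval covers counting error only.

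The libraries held 51653956 to 87703837 gene UMIs, and 27454 cells were kept, 2142 to 4625 per group, with group medians of 2868 to 8550 UMIs per cell. Only 5313 of 12437 called barcodes of tumor control and 7723 of 12522 of tumor IR carried at least 20 hashtag UMIs, against nearly all in blood, so the tumor groups are the hashtagged part of those libraries. Among kept cells, 455 shared a barcode with a cell of another library. Ythdf2, the targeted gene, was at 32.9 to 55.4 CPM (UMIs per 1000000 gene UMIs) in the 4 WT-label groups and at 303.2 to 373.6 CPM in the 4 cKO-label groups. That is the opposite of what the label says. Tags at the 3′ end may lie outside the deleted part and then do not test the deletion. The cause of the higher level under the cKO label was not tested, and groups are named as labelled. Lyz2, which encodes the lysozyme of myeloid cells, was at 5617 to 14141 CPM under the WT label and at 81.3 to 138.3 CPM under the cKO label.

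By position in mm10, Csf2ra lies on the reverse strand of chr19:61223957-61228429, Csf3r on the forward strand of chr4:126024550-126044440, and Csf1 on the reverse strand of chr3:107741048-107760469. Csf2rb2 (reverse strand, chr15:78282507-78305721) and Csf2rb (forward strand, chr15:78325752-78353847) are neighbours with 20030 bases between them. They are held to be near-identical paralogs, but their sequences were not compared here. How reads that fit both genes were counted was not examined, and all values for each of them are uncertain to that extent.

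RefSeq held a promoter window (GRCm38.p6, 250 bases before to 50 after the start) for 4 of the 6 genes, and these are shown because their levels over cell clusters are compared in what follows. In the receptor windows capitals mark GAGGAA, the core recognised by PU.1, a transcription factor of myeloid receptor genes. In the Csf1 window they mark GGG and CC with any 5 bases between them, a pattern of NF-kB sites. Both strands were searched, overlapping matches run together in the capitals, and the windows are chr19:61228369-61228668 (reverse strand) for Csf2ra, chr15:78305672-78305971 (reverse) for Csf2rb2, chr4:126024409-126024708 (forward) for Csf3r and chr3:107760420-107760719 (reverse) for Csf1.
Csf2ra: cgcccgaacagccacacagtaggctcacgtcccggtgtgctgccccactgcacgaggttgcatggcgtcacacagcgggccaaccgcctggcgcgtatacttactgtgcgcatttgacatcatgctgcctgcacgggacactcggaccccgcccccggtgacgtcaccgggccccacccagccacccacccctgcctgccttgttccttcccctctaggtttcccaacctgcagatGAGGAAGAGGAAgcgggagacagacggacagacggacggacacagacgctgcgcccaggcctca
Csf2rb2: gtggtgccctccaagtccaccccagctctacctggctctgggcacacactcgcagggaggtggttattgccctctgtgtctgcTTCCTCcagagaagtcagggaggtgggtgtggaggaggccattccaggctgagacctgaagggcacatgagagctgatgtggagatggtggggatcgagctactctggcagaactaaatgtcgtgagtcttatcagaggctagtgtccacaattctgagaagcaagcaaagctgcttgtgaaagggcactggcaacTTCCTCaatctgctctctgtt
Csf3r: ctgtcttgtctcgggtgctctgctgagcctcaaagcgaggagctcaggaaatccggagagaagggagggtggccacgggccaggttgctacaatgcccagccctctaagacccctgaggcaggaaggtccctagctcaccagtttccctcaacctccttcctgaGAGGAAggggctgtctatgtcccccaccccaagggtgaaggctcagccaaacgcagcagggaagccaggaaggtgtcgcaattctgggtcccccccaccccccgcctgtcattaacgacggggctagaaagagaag
Csf1: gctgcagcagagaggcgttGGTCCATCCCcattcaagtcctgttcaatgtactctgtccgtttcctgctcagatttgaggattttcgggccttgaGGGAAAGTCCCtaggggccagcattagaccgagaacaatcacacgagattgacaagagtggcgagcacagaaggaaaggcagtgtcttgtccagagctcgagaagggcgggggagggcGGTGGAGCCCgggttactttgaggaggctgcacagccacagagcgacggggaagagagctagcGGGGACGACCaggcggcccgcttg

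GAGGAA stood 2 times in the Csf2ra window, from positions -14 and -8 (the first base of the transcript is 1), 2 times in that of Csf2rb2 on the other strand, from -167 and 30, and 1 time in that of Csf3r, from -86. It was in 28.28% of the 32851 promoter windows of the table. GCAAT, part of the C/EBP site, stood at -9 in the Csf3r window and at -185 on the other strand of the Csf2rb2 window and is in 26.39% of windows. TTCNNNGAA, the STAT pattern, stood at -15 in the Csf2rb2 window and is in 8.298% of windows. The Csf1 window held 5 matches to the NF-kB pattern, which 50.79% of windows hold at least once, and the Csf3r window held 4 and that of Csf2ra 2, which are not in capitals. A match is a description of these letters and not a bound site.

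Clustering of all kept cells gave 23 clusters, 19 of them named from marker lists. The blood cells fell into 5 neutrophil-like clusters, a classical and a nonclassical monocyte-like cluster and small lymphoid, dendritic and basophil- or mast-like clusters. Tumor cells fell into macrophage-like, dendritic, NK-like and fibroblast-like clusters and 4 clusters that stayed unnamed and are called by their leading genes. The sort was for Ly6Chi cells, yet neutrophil-like cells made up 66.8% of blood control and 70.7% of blood IR cells. Levels of the members by cluster are descriptions, with no test.

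Csf1r lies on the forward strand of chr18:61100598-61132149 in mm10 and overlaps Hmgxb3 on the other strand and Mir6983 on its own. This gene of the CSF1 receptor was highest in the nonclassical monocyte-like cluster, at 649.7 CPM (95% interval 638.3 to 661.2), where 98.5% of the 1837 cells had a UMI. It was next highest in the macrophage-like cluster led by Ccl8 and Fcrls, at 463.5 CPM (447.1 to 480.3), and in the unnamed Gm26917 cluster of low-depth cells, at 422.2 CPM (394.5 to 451.4). The intervals of the latter pair overlapped. The unnamed Cdh1/H2-Eb1 cluster (389.9 CPM) and Adora2b/Nrg1 cluster (384.2 CPM) of the tumor and the classical monocyte-like cluster of the blood (356.5 CPM) followed within a narrow range. The 3 large neutrophil-like clusters were at 115.5 to 144.8 CPM. NK-like cells, which should lack the gene, were at 7.51 CPM in the tumor cluster and 7.71 CPM in the blood cluster, below the neutrophil-like level. The B cell-like cluster of 77 cells was at 58.75 CPM (36.37 to 89.81). The T cell-like cluster of 97 cells was at 150.3 CPM (121.3 to 184.1), no lower than the neutrophil-like clusters. How much background added to the neutrophil-like level was not tested. With every cell thinned to 1000 UMIs, which kept 1837 of 1837, 4750 of 4770, 4263 of 4272, 431 of 433 and 409 of 409 cells of the clusters named next, 48.2% of nonclassical monocyte-like cells, 11.4% and 13.1% of cells in the neutrophil-like clusters led by Stfa2l1 and Slc40a1, and 0.464% and 1.71% of tumor and blood NK-like cells had a Csf1r UMI.

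Csf3r, the G-CSF receptor, was at 2859 CPM (2828 to 2892) in the neutrophil-like cluster led by Slc40a1, 2675 CPM (2621 to 2729) in the interferon-gene cluster led by Ifit3b and 2494 CPM (2468 to 2521) in the one led by Stfa2l1, each with a UMI in over 99% of cells (99.6%, 99.5% and 99.6%). The remaining neutrophil-like clusters were lower, at 1251 CPM in the cluster led by Wfdc21 and Lcn2 and 240.8 CPM in the 91 cells led by the granule genes Ltf, Ngp and Camp. Nonclassical and classical monocyte-like cells held 221 and 116.1 CPM. The blood NK-like cluster stood at 23.1 CPM. The T cell-like cluster held 106.7 CPM (82.49 to 135.7) and the B cell-like cluster 125.9 CPM (91.83 to 168.5). Both of these intervals held the classical monocyte-like level. The barcodes too small to be cells, a sample of free RNA, held 1812 and 2459 CPM of Csf3r in blood control and blood IR. In the tumor libraries they held 26.5 and 31.7 CPM. How much free RNA added to low Csf3r levels of blood clusters was not tested.

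Csf2ra, the GM-CSF-specific chain, varied less than the other members over the large myeloid clusters. Its level was 152.1 to 300.8 CPM in the 13 clusters of myeloid cells with at least 500 cells, the Gm26917 cluster aside (381 CPM), against 6.93 and 12.6 CPM in the NK-like clusters. Csf2rb, the common beta chain, was highest among the large clusters in the Adora2b/Nrg1 cluster (626.4 CPM, 612.8 to 640.1) and in the unnamed Ccl3/G0s2 cluster (582.3 CPM, 539.6 to 627.4), whose intervals overlapped. It was lowest among myeloid clusters of that size in the classical monocyte-like (167.4 CPM), Ccl8/Fcrls macrophage-like (169.2 CPM) and nonclassical monocyte-like (180.4 CPM) cells. Mature dendritic cell-like cells, 148 in number, held 458.1 CPM of Csf2rb and 4.22 CPM of Csf1r, with no UMI of Csf3r or Csf1 (upper limit 3.89 CPM). The 15 basophil- or mast-like cells of blood control held 1371 CPM of Csf2rb (1092 to 1700), 462.7 CPM of Csf2rb2 and 1570 CPM of Csf1, in 15 of 15 cells, with no UMI of Csf1r or Csf2ra (upper limit 60.96 CPM).

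Csf2rb2, the second beta chain, made up 7.35% to 9.44% of the UMIs of the beta-chain pair in the 4 blood groups and 14.2% to 16.9% in the 4 tumor groups. Among clusters with at least 100 UMIs of the pair, the basophil- or mast-like one left aside, its share ran from 5.70% (4.94% to 6.54%) in the Slc40a1 neutrophil-like cluster to 20.6% (19.4% to 21.9%) in the Arg1-type macrophage-like cluster led by Hspa1a and Mmp12. The 15 basophil- or mast-like cells were at 25.2% (17.5% to 34.4%, of 111 UMIs). Because the genes resemble each other, this share is of UMIs as the authors assigned them.

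**Figure D1:**
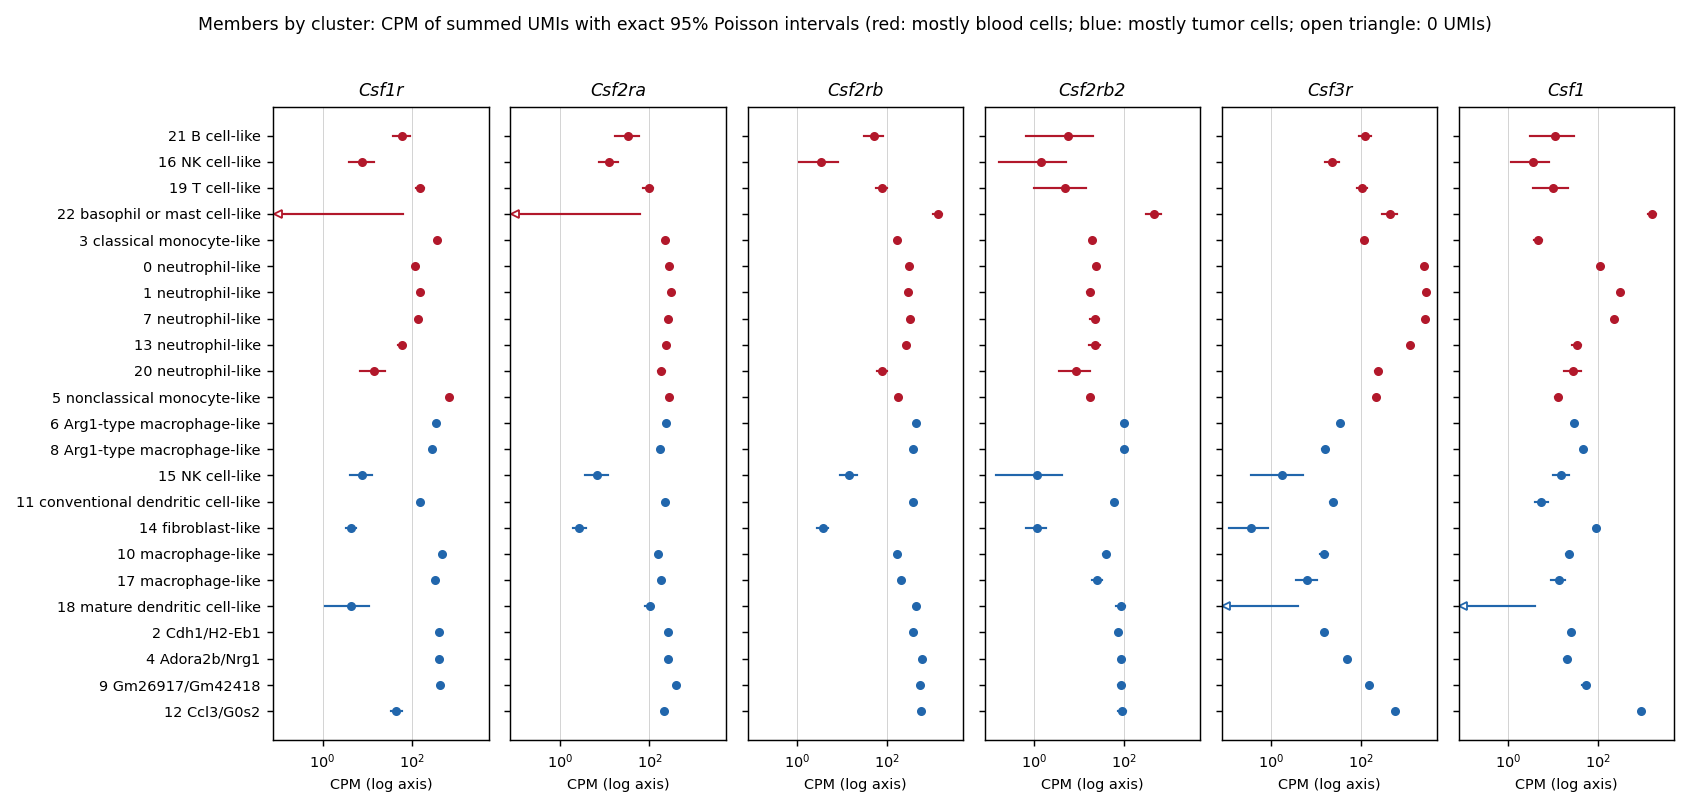
CPM (log axis) of each member in the 23 clusters, 1 panel a gene, with exact 95% Poisson intervals for counting error. Red marks clusters mostly of blood cells and blue mostly of tumor cells. Open triangles mark 0 UMIs, drawn at the axis floor with a line to the upper limit. Csf3r was highest in 4 of the neutrophil-like clusters (1251 to 2859 CPM), with that led by Ltf at 240.8 CPM and the unnamed Ccl3/G0s2 cluster at 569.6 CPM, and Csf1r peaked at 649.7 CPM in nonclassical monocyte-like cells.

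Receptors found together in a cell were compared, within clusters, with the product of their separate shares. In cells thinned to 1000 UMIs, 9.88% of Adora2b/Nrg1 cells had both Csf2ra and Csf2rb, where the product of their shares was 9.85%, and in the Stfa2l1 neutrophil-like cluster 10.6% had both Csf1r and Csf3r, against a product of 10.3%. The low-depth Gm26917 cluster had Csf2ra and Csf2rb together in 14.6% of 780 cells, against 11.96%, and the Ltf neutrophil-like cluster had Csf1r and Csf3r together in 2.20% of 91 cells, against 0.580%. The genes whose levels ran most like the members over the 23 clusters (Pearson r of log2(CPM + 5) among 8605 genes, a description over clusters that share libraries) were Psap (0.95) and Cd68 (0.92), both of lysosomes, for Csf1r, and Rab32 (0.94) and Plbd1 (0.94) for Csf2ra. Ptafr, the receptor for platelet-activating factor, was closest to Csf2rb (0.86), Pfkfb3, a regulator of glycolysis, to Csf2rb2 (0.88), and Trim30b to Csf3r (0.96). Csf1 ran most like the predicted gene Gm28809 (0.94). Csf2rb and Csf2rb2 had an r of 0.90 with each other, and Csf1r and Csf1 one of -0.20.

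Csf1, the ligand, came from different clusters in each tissue. In blood, 90.8% of its UMIs (control) and 93.4% (IR) lay in neutrophil-like cells, above all those led by Slc40a1 (309.6 CPM, 299.1 to 320.2), and classical monocyte-like cells held 4.59 CPM. In tumor control, 54.7% of 1624 Csf1 UMIs (95% interval 52.2% to 57.1%) lay in the 1 cluster that was not immune by its markers, which was 7.84% of cells and 24.1% of gene UMIs. In tumor IR that cluster held 14.9% of 2574 Csf1 UMIs (13.5% to 16.3%), and the Ccl3/G0s2 cluster held 37.1% (35.2% to 39.0%) with 8.14% of cells and 2.44% of gene UMIs. The corresponding share of the Ccl3/G0s2 cluster in tumor control was 5.91% (4.81% to 7.17%). Whether cells that carried no hashtag had the same shares was not tested.

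The non-immune cluster was named fibroblast-like because 6 of the 8 fibroblast markers were raised in it. Whether its cells were stromal cells or MC38 carcinoma cells was not tested. Among its 490 cells 90.2% had a UMI of the collagen gene Col3a1, 43.5% one of the collagen gene Col1a1 and 40.4% one of the proliferation gene Mki67. The epithelial genes Krt8, Krt18 and Epcam had 0 UMIs in it (upper limit 0.266 CPM). Krt8 and Cldn4, both of the carcinoma list, had 0 UMIs in all cells of both tumor control groups too. Those groups include this cluster, and no cluster was known to be MC38 cells. What the absence of these epithelial genes means for stromal or carcinoma origin was therefore not tested. Ptprc, which encodes the CD45 of the sort, was found in 9.18% of its cells. Its median of 26207 UMIs per cell was far above the group medians. Csf1 was found in 337 of its cells, and its level was 79.1 CPM in tumor control WT-label cells (115 cells), 86.0 CPM in control cKO-label cells (251 cells), 119 CPM in IR WT-label cells (78 cells) and 116 CPM in IR cKO-label cells (46 cells). Both IR groups were thus above both control groups, with a log2 ratio of 0.59 (0.33 to 0.85) under the WT label, while the cluster's share of cells went from 4.55% and 11.7% in the control groups to 2.504% and 1.22% in the IR groups. The GM-CSF gene Csf2 and Il34 lay almost wholly there too. Csf2 had 1680 UMIs in 106 of these cells, 90.8% of the Csf2 UMIs of tumor control and 91.9% of those of tumor IR, and Il34 had 733 UMIs in 293 cells, 98.8% and 97.0%. The receptors were at background in it, at 0.361 CPM for Csf3r to 4.33 CPM for Csf1r.

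The Ccl3/G0s2 cluster numbered 40 cells of tumor control, 15 labelled WT and 25 labelled cKO, and 560 of tumor IR, 321 labelled WT and 239 labelled cKO. Over its 600 cells Csf1 was at 887.3 CPM (834.5 to 942.7), with a UMI in 307 cells, Csf3r at 569.6 CPM and Csf1r at 43.9 CPM. Per group, Csf1 stood at 681 CPM (404 to 1076), 1398 CPM (1105 to 1745), 754 CPM (688 to 824) and 1025 CPM (934 to 1122) in the order control WT, control cKO, IR WT and IR cKO. Cells labelled cKO were above those labelled WT in each condition, and the intervals of control and IR overlapped under both labels. Its cells had the neutrophil genes S100a9 (in 87.7% of cells), Hdc (82.3%), Il1r2 (78.7%) and Cxcr2 (58.3%), and C1qa, a macrophage gene, in 8.00%. Of the Arg1-type macrophage list, Spp1 was in 44.7% of cells (3052 CPM) and Arg1 in 19.3% (222.3 CPM). The raised markers of that list were Spp1, Hilpda, Inhba, Il1rn, Ero1l, Cxcl3 and Thbs1. With 5 of 14 neutrophil markers raised and 7 of 12 of the Arg1-type macrophage list it was given no name. Its median depth was low, at 1846 to 2289 UMIs per cell by group. Csf3, the G-CSF gene, lay mostly in the Hspa1a/Mmp12 Arg1-type macrophage-like cluster, with 54.4% of its 794 UMIs in tumor control and 53.6% of its 308 in tumor IR, in 74 of 1183 cells.

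**Figure D2:**
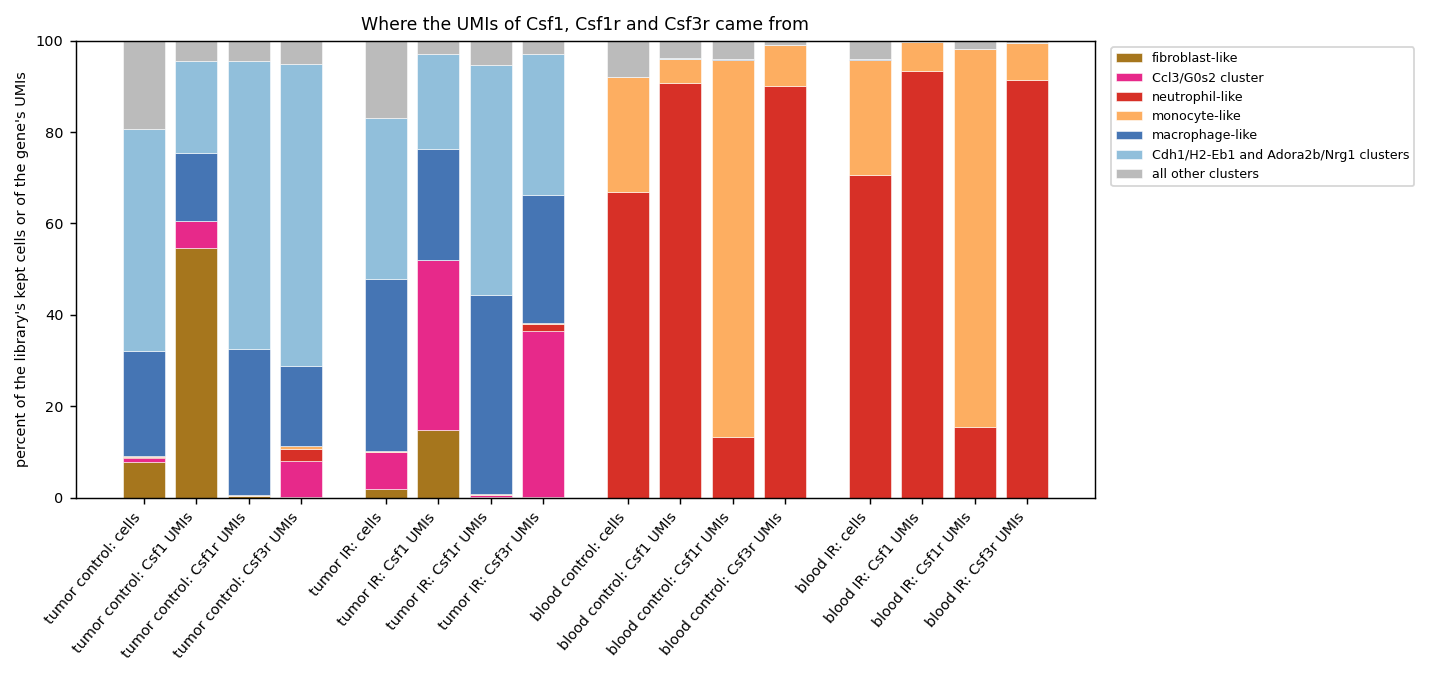
Stacked bars of the percent of kept cells and of Csf1, Csf1r and Csf3r UMIs that each class of clusters held in each library. Csf1 in tumor control came mostly from fibroblast-like cells (54.7%), in tumor IR more from the Ccl3/G0s2 cluster (37.1%) than from any other class and in blood from neutrophil-like cells (90.8% and 93.4%), whereas Csf1r came from macrophage-like and unnamed tumor clusters and from blood monocyte-like cells.

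**Figure D3:**
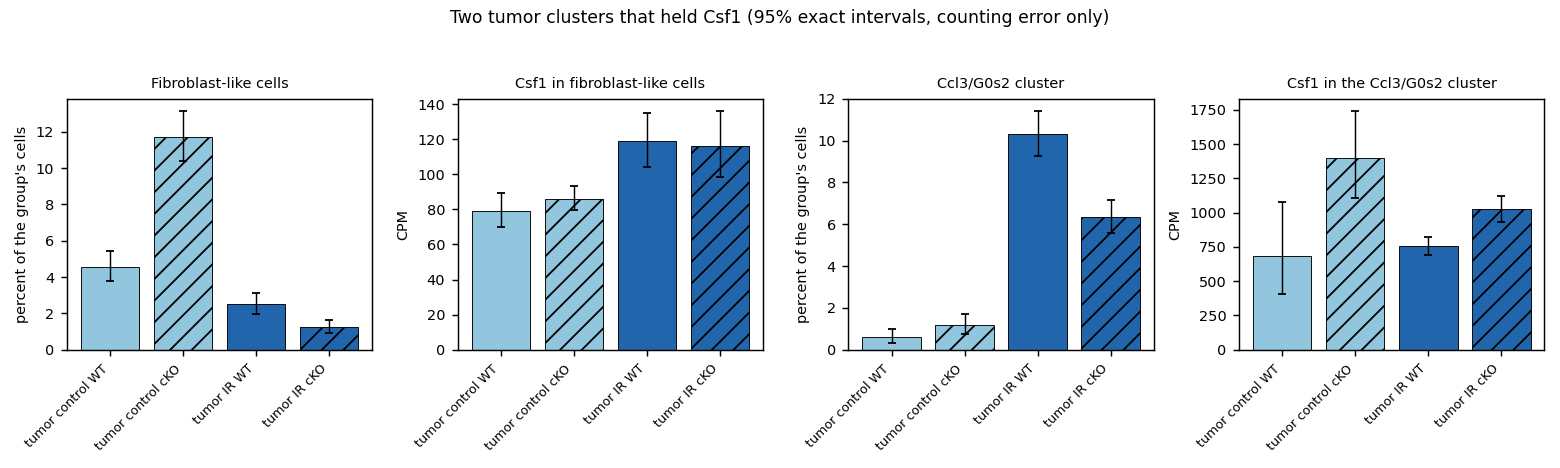
Share of the group's cells and Csf1 CPM of the fibroblast-like and Ccl3/G0s2 clusters in the 4 tumor groups, with 95% intervals for counting error. The fibroblast-like share was 11.7% in control cKO-label cells and 1.22% in IR cKO-label cells, and Csf1 in it was 79.1 to 119 CPM.

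Across the 8 groups the members had different orders, given here with the WT label before the cKO label. Csf1r was at 296 and 278.5 CPM in tumor control, 273.7 and 302.5 CPM in tumor IR, 307.6 and 392.7 CPM in blood control, and 279.7 and 315 CPM in blood IR. Blood control cells labelled cKO stood highest, and the other groups formed 2 runs of overlapping intervals, from 273.7 to 279.7 CPM and from 296 to 315 CPM, each with tumor and blood groups. Csf2ra was at 180.9 and 152.6 CPM in tumor control, 220.5 and 210.5 CPM in tumor IR, 256.3 and 252.7 CPM in blood control, and 247.6 and 237 CPM in blood IR, so the blood groups were above the tumor groups.

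Csf2rb was at 314.7 and 223.4 CPM in tumor control, 444.4 and 446.9 CPM in tumor IR, 195.8 and 229.4 CPM in blood control, and 218.1 and 230.8 CPM in blood IR. The tumor IR groups were highest, with overlapping intervals, and the interval of control tumor cells labelled cKO overlapped those of 3 blood groups. Csf2rb2 was at 58.3 and 36.9 CPM in tumor control, 80.7 and 90.8 CPM in tumor IR, 15.5 and 23.9 CPM in blood control, and 17.9 and 21.0 CPM in blood IR, and here every tumor group was above every blood group.

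Csf3r was at 22.1 and 11.3 CPM in tumor control, 41.1 and 35.3 CPM in tumor IR, 1080 and 949.7 CPM in blood control, and 1068 and 1065 CPM in blood IR. The tissues lay far apart, and among blood groups only control cells labelled cKO were set off from the overlapping rest. Csf1 was at 29.9 and 42.9 CPM in tumor control, 63.1 and 52.3 CPM in tumor IR, 86.8 and 67.0 CPM in blood control, and 83.5 and 66.01 CPM in blood IR. Blood cells labelled WT were highest, and tumor control cells labelled WT lowest.

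**Figure D4:**
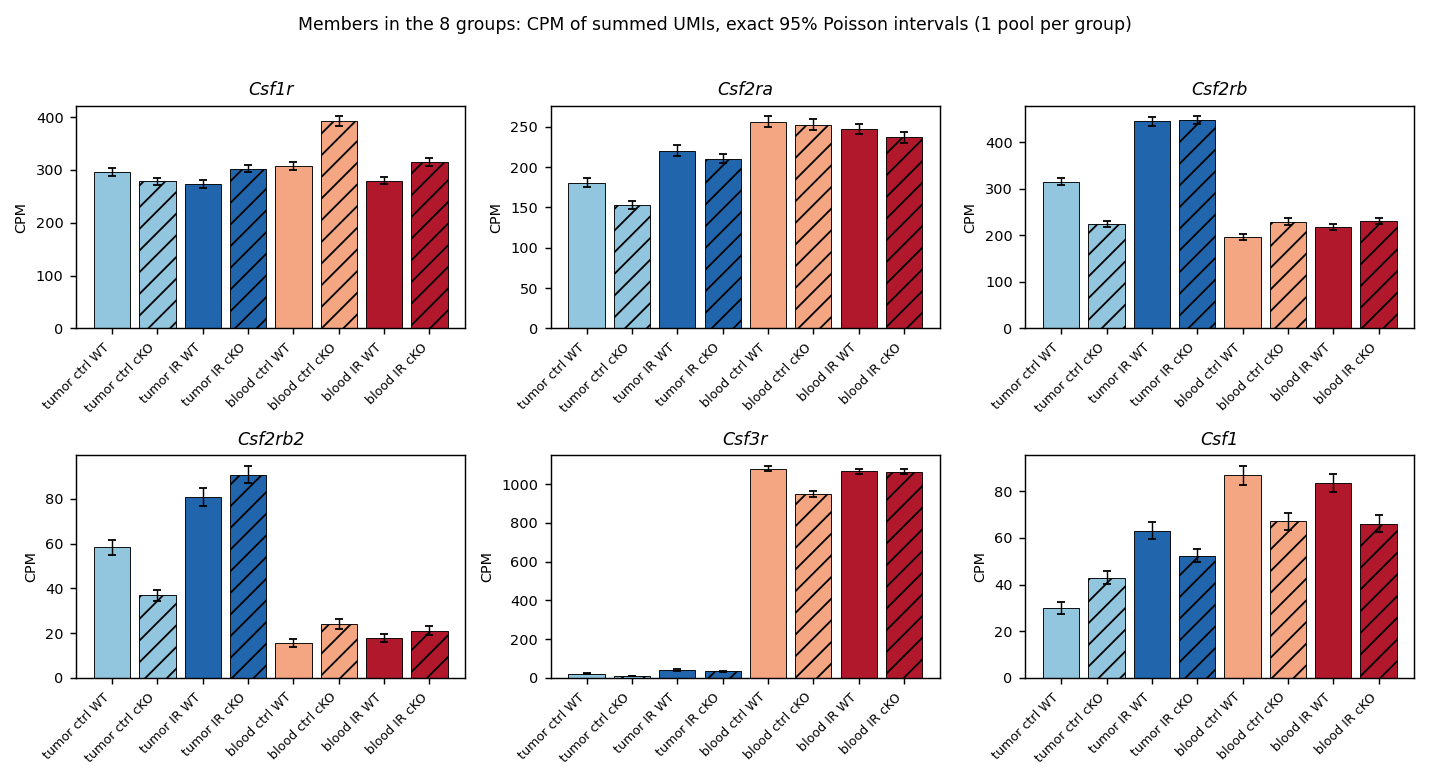
CPM of each member in the 8 groups, 1 bar a group with its exact 95% Poisson interval. Csf3r lay at 949.7 to 1080 CPM in blood and 11.3 to 41.1 CPM in tumor, and Csf2rb and Csf2rb2 were highest in the tumor IR groups.

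IR was compared with control within tissue and label. A gene was counted as past the limit when its log2 ratio of CPM was at least 1 in size with an interval on 1 side of 0, among genes with at least 100 UMIs in both groups together, and no test underlies this. In sums over a group's cells, more cells of a type and more RNA per cell cannot be told apart. In the tumor, WT-label cells had 1 of the 6 members past the limit, beside 5.73% of the 10158 genes measured. It was Csf1, at 63.1 CPM after IR and 29.9 CPM in control (log2 ratio 1.08, 0.94 to 1.22). Without the Ccl3/G0s2 cluster the log2 ratio was 0.48, below the limit. Csf3r was at 41.1 and 22.1 CPM (0.89, 0.73 to 1.06), below the limit. Csf1r differed little, at 273.7 and 296 CPM (-0.11, -0.17 to -0.06), and its sign turned with TMM factors (0.04).

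In cKO-label tumor cells 3 of 6 members were past the limit, beside 22.3% of 10680 genes. Csf3r was at 35.3 CPM after IR and 11.3 CPM in control (1.64, 1.44 to 1.85), Csf2rb2 at 90.8 and 36.9 CPM (1.30, 1.19 to 1.42) and Csf2rb at 446.9 and 223.4 CPM (1.0, 0.95 to 1.05). Csf1 was at 52.3 and 42.9 CPM (0.28, 0.16 to 0.40), and without the Ccl3/G0s2 cluster it turned to -0.23. When only clusters with at least 50 cells in both groups were used and weighted alike, the log2 ratios fell under the limit for every member, to 0.31 for Csf2rb, 0.55 for Csf2rb2 and 0.67 for Csf3r, while Csf1r turned from 0.12 to -0.24. In WT-label cells the same weighting gave 0.25 for Csf2rb, 0.57 for Csf1 and -0.14 for Csf3r. Among the clusters left out for too few control cells under both labels were the Ccl3/G0s2 cluster and the Arg1-type macrophage-like cluster led by Ifit1bl1. The fibroblast-like cluster was left out under the cKO label only. The weighted values do not cover these clusters, and the sets of clusters differ between the labels. The summed level of the 14 neutrophil markers moved with Csf3r, from 721.6 to 2882 CPM under the WT label and from 536.5 to 2096 CPM under the cKO label, with Camp at 0 in all 4 groups and Ngp in 2 of them, and its part in the result was not tested. The Ccl3/G0s2 cluster held 7.82% of Csf3r UMIs in tumor control and 36.2% in tumor IR.

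Csf2rb was also higher after IR inside the clusters. Of 6 tumor clusters with at least 100 UMIs of it, 5 had an interval above 0 under each label, with log2 ratios of 0.13 to 0.52 over the 6 clusters under the WT label and 0.14 to 0.58 under the cKO label. Among genes with as many measurable clusters, 5.57% of 2191 (WT label) and 12.5% of 1421 (cKO label) were higher in at least 5. In Adora2b/Nrg1 cells Csf2rb was at 667 CPM after IR and 537.4 CPM in control under the WT label (0.31, 0.23 to 0.40) and at 698.1 and 596.4 CPM under the cKO label (0.23, 0.13 to 0.33). In the cluster of conventional dendritic cell-like cells it was at 629.7 and 494.9 CPM, and 547.9 and 430.5 CPM (0.35 in each label). In tumor NK-like cells, which should lack the gene, Csf2rb went from 2.80 CPM (2 UMIs) to 22.7 CPM (5 UMIs) under the WT label. Under the cKO label it went from 5.23 CPM (2 UMIs) to 41.2 CPM (16 UMIs). The free RNA held 256.5 CPM of it in tumor control and 318.5 CPM in tumor IR. The background thus moved in the same direction, in NK-like cells on few UMIs, and its part was not tested. Csf1r in Ccl8/Fcrls macrophage-like cells was at 518.5 CPM in control and 307.3 CPM after IR under the cKO label, a log2 ratio of -0.75 (-0.94 to -0.58), and at 452.0 and 355.4 CPM under the WT label, a log2 ratio of -0.35 (-0.65 to -0.06).

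In blood no member was past the limit after IR, in WT-label cells (1.32% of all genes) or in cKO-label cells (1.4%). Csf3r differed by -0.02 under the WT label and 0.17 (0.14 to 0.20) under the cKO label. The widest shift was that of Csf1r under the cKO label, from 392.7 to 315 CPM (-0.32, -0.37 to -0.27). Under the WT label the same gene stood at -0.14 (-0.19 to -0.09) and Csf1 at -0.05 (-0.15 to 0.04).

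The genotype labels were compared within each library. No member was past the limit in tumor control (4.84% of all genes), tumor IR (1.25%), blood control (2.21%) or blood IR (0.633%). The member nearest to it was Csf3r in tumor control, at 11.3 CPM in cKO-label and 22.1 CPM in WT-label cells (-0.96, -1.19 to -0.75), which went past it with TMM factors (-1.03) and without the Ccl3/G0s2 cluster (-1.08). In the Cdh1/H2-Eb1 cluster it stood at 7.46 CPM (50 UMIs) and 18.3 CPM (123 UMIs), between the NK-like floor of the tumor (1.73 CPM) and the free RNA of the library (26.5 CPM). Csf2rb2 (-0.66) and Csf2rb (-0.49) were lower under the cKO label and Csf1 higher (0.52, 0.38 to 0.67). Fibroblast-like cells made up 11.7% of cKO-label and 4.55% of WT-label cells in that library. With the clusters weighted alike, the values were -0.20 for Csf2rb2, -0.03 for Csf2rb and 0.09 for Csf1.

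In blood control, Csf2rb2 was at 23.9 CPM in cKO-label and 15.5 CPM in WT-label cells (0.62, 0.42 to 0.83) and stayed so with clusters weighted alike (0.71). In the Stfa2l1 neutrophil-like cluster it was at 35.2 CPM (115 UMIs) and 14.5 CPM (43 UMIs), a log2 ratio of 1.26 (0.76 to 1.82). Csf1r was higher in cKO-label cells there as well (0.35, 0.30 to 0.40), at 734 against 625.9 CPM in nonclassical and 452.8 against 374.1 CPM in classical monocyte-like cells. Csf1 was lower in the sum (-0.37) and higher with clusters weighted alike (0.35), and neutrophil-like cells of the Slc40a1 cluster numbered 1751 under the WT label and 666 under the cKO label. In blood IR the members differed by -0.34 (Csf1) to 0.24 (Csf2rb2). In tumor IR they differed by -0.27 (Csf1) to 0.17 (Csf2rb2).

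**Figure D5:**
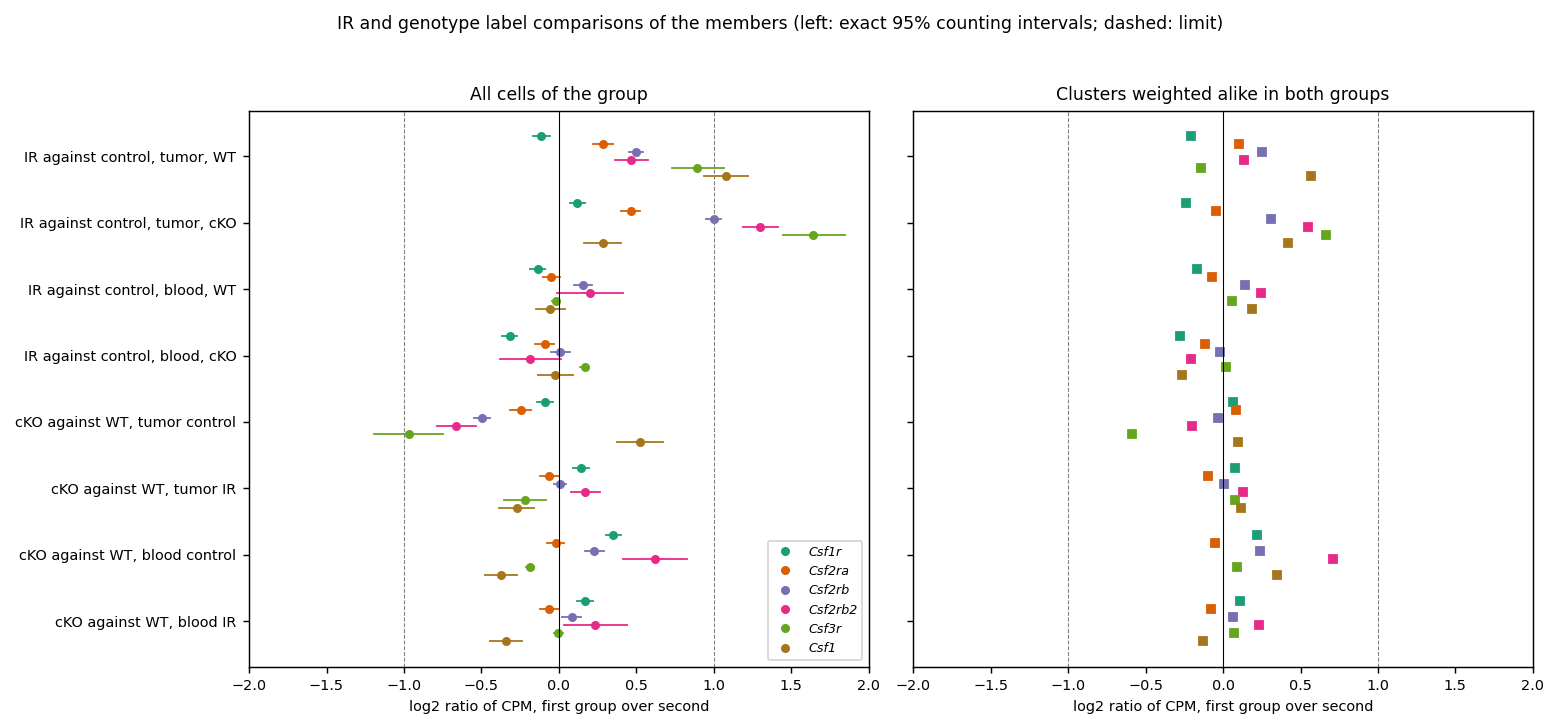
Log2 ratios of CPM of the members for IR against control and for cKO label against WT label, left with all cells and exact 95% counting intervals, right with clusters weighted alike; dashed lines mark the limit of 1. Members past the limit in the left panels were Csf1 (1.08) in WT-label and Csf2rb, Csf2rb2 and Csf3r (1.0 to 1.64) in cKO-label tumor cells.

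Tumor control was set against blood control within each label. Under the WT label 3 of 6 members were past the limit, beside 35.4% of all genes, and under the cKO label 1 of 6, beside 43.8%. Csf3r was at 22.1 CPM in tumor and 1080 CPM in blood WT-label cells (-5.61, -5.75 to -5.48) and at 11.3 and 949.7 CPM in cKO-label cells (-6.39, -6.57 to -6.22). Csf2rb2 was higher in tumor (1.91 under the WT label, 0.62 under the cKO label) and Csf1 lower (-1.54 and -0.64). Without the fibroblast-like cluster the cKO-label values were 1.14 for Csf2rb2 and -1.48 for Csf1, both past the limit. Csf1r was nearly level under the WT label (-0.06, -0.11 to -0.00474) and lower in tumor under the cKO label (-0.50), and without the fibroblast-like cluster both values were above 0 (0.20 and 0.02). The summed neutrophil markers were at 536.5 to 721.6 CPM in tumor control and 70412 to 107657 CPM in blood groups, and the makeup of cells and the tissue cannot be told apart.

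The rest of the pathway was read from 7 lists of 60 genes. After IR in the tumor, 2 of the 54 measured were higher and 6 lower past the limit under the WT label (14.8%, where all genes had 5.73%), and 7 were higher and 6 lower under the cKO label (24.1%, where all genes had 22.3%). Among the other ligands, Csf2 was at 3.88 CPM after IR and 12.1 CPM in control (-1.63) and Csf3 at 7.27 and 19.5 CPM (-1.42) under the WT label. Under the cKO label Csf2 was at 6.28 and 57.7 CPM (-3.19) and Il34 at 2.79 and 17.8 CPM (-2.65). There all 3 measured ligands were lower past the limit, and only the 2 of largest size are named. A ligand named under 1 label is therefore not shown to be particular to it. Csf2 and Il34 lay in the fibroblast-like cluster, whose share of cells was lower after IR. Inside that cluster Csf2 was lower after IR too, from 58.56 to 38.76 CPM (WT label) and from 175.4 to 107.6 CPM (cKO label). Il34 went from 45.48 to 49.97 CPM and from 57.53 to 51.1 CPM there, with overlapping intervals under each label. Of the 1680 Csf2 UMIs of the cluster, 31.13% lay in 5 cells. The parts of cell share and of level inside the cluster were not tested.

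Of the kinases and STATs that carry cytokine receptor signals, 0 of 7 were past the limit under the WT label, and under the cKO label those past it included the kinase gene Jak2 (1.04). The feedback inhibitors Socs1 (1.19) and Socs2 (1.02) were past it under the cKO label only, among 11 feedback and target genes. The difference between the labels in this was not tested. Of the 14 measured adaptors close to CSF1R, 0 were past the limit under the WT label and Lyn (1.04), a Src-family kinase, under the cKO label. Cebpe, a transcription factor of granulocyte maturation, was higher in both (2.23 and 2.13), at 21.2 and 22.0 CPM after IR. It was at 37.4 CPM (400 UMIs) in the Arg1-type macrophage-like cluster led by Ifit1bl1, which had 54 cells of tumor control and 1530 of tumor IR. The Ccl3/G0s2 cluster, with neutrophil genes, held 13.5 CPM (16 UMIs). The part of cell shares was not tested. Among 6 measured genes tied to CSF1 dependence, the Fc receptor gene Fcgr1 was higher (1.28 and 1.88), while Cx3cr1, the fractalkine receptor (-2.08 and -2.64), was lower in both labels, with Mrc1 (-1.26) under the WT label and Cd81 (-1.88) under the cKO label. Under each label 3 of these genes were lower past the limit, and only the 2 of largest size are named. Mrc1 and Cd81 are therefore not shown to be particular to 1 label. Among other receptors Kit was lower under the WT label (-1.01).

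In blood after IR, 1 of 49 pathway genes was past the limit under the WT label, Cish (1.80), a target of STAT5, at 4.80 and 1.35 CPM, and 1 of 48 under the cKO label, the receptor gene Flt3 (-1.99). That is 2.04% and 2.08%, where all genes had 1.32% and 1.4%. Between labels, Csf2 (2.25) and Il34 (1.22) were higher in cKO-label cells of tumor control, Mrc1 (1.08) in those of tumor IR, Cish (1.66) was higher and Ets2 (-1.24) lower in blood control, and 0 of 48 were past it in blood IR. The shares past the limit were 3.70%, 1.85%, 4.17% and 0% in that order of libraries, where all genes had 4.84%, 1.25%, 2.21% and 0.633%. Tumor control against blood control had 16 of 55 genes higher and 14 lower under the WT label (54.5%, where all genes had 35.4%) and 18 and 16 of 54 under the cKO label (63.0%, where all genes had 43.8%). Cish was at 83.4 CPM in tumor and 1.35 CPM in blood (5.90), and Spi1, which encodes PU.1, at 262 and 769.4 CPM (-1.55), both under the WT label. Csf3 was at 19.5 CPM in WT-label tumor control with 0 UMIs in WT-label blood control, where 3 counts are 0.140 CPM.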

How the data were processed

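Sorted cells of 4 droplet libraries (10x Genomics 3′ v3.1), each a gene and a hashtag library, were used. Per the file headers, the authors deposited raw UMI counts per feature and barcode from Cell Ranger, aligned to mm10 with the GENCODE vM23 annotation. The submitters' notes name Cell Ranger 6.0.1 and Seurat 4.0.6, and the headers an earlier Cell Ranger. Each matrix held 32285 genes and 2 hashtags over all barcodes, so cells were called again.

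Barcodes over an order-of-magnitude threshold, or with 500 or more UMIs and distinct from the free RNA, were kept at 200 or more genes, at most 25% mitochondrial UMIs and at least 20 hashtag UMIs (WT if B0301 was at least B0302, cKO if B0302 was at least 4 times B0301). Scrublet (scanpy 1.11.5) marked 5 barcodes by its own threshold, so the top 6% by score were removed in its place. Seurat 5.3.0 clustered all cells (2000 variable genes without the members, pathway and label genes, 40 components, Louvain resolution 0.8). Clusters were named from 18 marker lists where at least 3 markers were raised 2 times in 25% of cells, limits set after the data had been examined. A cluster stayed unnamed if another list had as many or more markers among its 10 leading genes, unless no list had any there. It also stayed unnamed if its depth was low and its best list had no marker among those genes.

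With 1 pool a group no test was possible. UMIs were summed, and CPM (exact Poisson intervals), log2 ratios after adding 1 UMI scaled to depth (exact conditional binomial) and shares (Clopper-Pearson) were given at the 95% level. The contrast was tested on simulated data. Gene positions came from GENCODE vM21 (mm10) and promoters from RefSeq. The members and lists were chosen with earlier results of these data known. Named pathway genes were at most the 2 of largest size past the limit per list, comparison and direction, and likeness named up to 3 genes a member. Alternatives were other hashtag, cell calling, mitochondrial, doublet, scaling, count minimum and clustering rules. Some genes of the lists are not reported here by name.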

Additional observations from a re-analysis of the deposited data

Results flagged for a closer look

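In 48 pairings of a member with 2 comparisons (8 pairs of comparisons), 10 had log2 ratios of opposite sign with both counting intervals away from 0. The differences were not tested, since each group was 1 pool, and several of the comparisons share a group. Values weighted alike cover only clusters with at least 50 cells in both groups, and these were not the same clusters in every comparison.

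For Csf1r, IR against control in the tumor was -0.11 under the WT label and 0.12 under the cKO label (difference -0.23), which is equally the difference (-0.23) between the genotype comparisons in tumor control (-0.09) and tumor IR (0.14). With clusters weighted alike the IR ratios were -0.21 and -0.24, and the genotype ratios 0.06 and 0.08. For Csf2rb2 the genotype ratio was -0.66 in tumor control and 0.17 in tumor IR (difference -0.83), and for Csf1 it was 0.52 and -0.27 (difference 0.79). Weighted alike, they were -0.20 and 0.13 for Csf2rb2 and 0.09 and 0.11 for Csf1.

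Between tissues, IR against control under the cKO label was 0.12 in tumor and -0.32 in blood for Csf1r (difference 0.44) and 0.46 and -0.09 for Csf2ra (difference 0.56). Weighted alike, both tissues were below 0 for each gene, at -0.24 and -0.28 for Csf1r and -0.05 and -0.12 for Csf2ra. The genotype ratio in control libraries differed between tumor and blood by -0.44 for Csf1r, -0.72 for Csf2rb, -1.28 for Csf2rb2 and 0.89 for Csf1. Weighted alike, Csf2rb2 remained of opposite sign (-0.20 in tumor and 0.71 in blood), as did Csf2rb (-0.03 and 0.24), while Csf1r (0.06 and 0.22) and Csf1 (0.09 and 0.35) were above 0 in both.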

How the results depend on the processing

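No paired analysis was possible because each group was 1 pool without replicate numbers, and no replicate could be left out. Of the counts of members past the limit and the 2 shares of Csf1 UMIs in non-immune cells, 121 values under the alternatives stayed within 1.5 times the count or within the interval and 11 did not. Settings named as added were chosen after seeing the data. For IR in WT-label tumor cells the count of 1 became 2 with a symmetric hashtag margin and 2 with TMM factors (Csf3r joined at 1.27 and 1.05), 0 with the order-of-magnitude threshold alone (Csf1 0.61) and 0 without the Ccl3/G0s2 cluster (added; Csf1 0.48). For the genotype label in tumor control the count of 0 became 1 with the threshold alone, with TMM factors, without barcodes shared between libraries (added) and without the Ccl3/G0s2 cluster (added), through Csf3r each time (-1.16, -1.03, -1.01 and -1.08). For tumor against blood under the cKO label the count of 1 became 3 without the fibroblast-like cluster (added). The threshold alone moved the share of Csf1 UMIs in non-immune cells from 54.7% to 60.6% in tumor control and from 14.9% to 21.5% in tumor IR, where the cluster matched to Ccl3/G0s2 had 81 cells in place of 600. For IR in cKO-label tumor cells the count stayed within 1.5 times, but Csf2rb lost its place at 0.88 with HTODemux, at 0.9988 with no removal by Scrublet score and at 0.56 without the fibroblast-like cluster (added), which also lowered Csf2rb2 to 0.85 and put Csf1 past the limit at 1.02. Cell composition was held (added) over clusters with at least 50 cells in both groups, which left out the Ccl3/G0s2 cluster. Csf1 under the WT label and Csf2rb, Csf2rb2 and Csf3r under the cKO label were then all below the limit (0.57, 0.31, 0.55 and 0.67). The causes were not tested.

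Depth limited the small clusters most. With 15 basophil- or mast-like cells a count of 0 allows 60.96 CPM. Intervals and floors cover counting error only, and no interval speaks to the spread between mice.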
